A study of Arabidopsis thaliana with 10 samples.

Results

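The loops described here are the short-range chromatin loops of the H3K4me1 list, a set of 4940 loops in which both ends lay on the same chromosome, in different anchors, with midpoints under 20 kb apart. They were chosen by the loop type, the anchor positions and the span given in the list, so their span and their place in the list are a description and not a finding. They made up 37.0% of the 13355 loops of the H3K4me1 list, 52.5% of its 9412 loops between different anchors of 1 chromosome, and were taken from 59276 loops of all 5 lists in the series. The series profiled chromatin contacts by ChIA-PET, in which cross-linked chromatin is pulled down with an antibody, DNA ends held together are ligated through a linker, and each sequenced paired-end tag (PET) reports a contact between a pair of sites. The samples were shoots of 2-week-old Arabidopsis thaliana seedlings of the wild-type accession Col-0, grown in long days, with no mutant or treated group. All received the same fixation, first EGS, a long-armed protein cross-linker (1.5 mM, 30 min), and then formaldehyde (1%, 10 min). There were 10 samples, 2 for each antibody, against H3K4me1, H3K4me3, RNAPII, H3K27me3 and H3K9me2. The 2 H3K4me1 replicates were deposited as 1 pooled list, so no value below has a spread between replicates and no test between conditions was possible. The intervals given are 95% intervals for counting error only (exact Clopper-Pearson for a share, order statistics for a median), and they treat loops that share an anchor as if they were separate. Shoots hold many cell types, and contacts in few cells cannot be told apart from weak contacts in all of them.

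H3K4me1 is the monomethylated form of lysine 4 of histone H3. In plants it lies over the bodies of transcribed genes, downstream of the H3K4me3 that marks their starts, whereas in animals it is best known as a mark of enhancers. In Arabidopsis ATX1, ATX2 and ATXR7 are among the enzymes that deposit it, and the LSD1-type demethylases FLD and LDL3 remove it. Genes that lie next to each other can be tandem (on the same strand), convergent (with their ends facing) or divergent (with their starts facing), so the stretch between a pair of gene bodies holds different elements in each case.

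The strongest loop of each orientation shows what the anchors were made of, and bases at their midpoints are printed for that reason. The coordinates are those of the loop list (TAIR10), the bases and annotation come from the RefSeq TAIR10.1 assembly, each stretch is written 5′ to 3′ on its gene's strand, and capitals mark coding sequence while lower case marks introns. The convergent pair AT3G11960 and AT3G11964 on chromosome 3 was joined by 190 PETs, the most of any loop in the set, and its stretches lie at chr3:3790122-3790211 (+ strand) and chr3:3800070-3800159 (- strand), 3852 and 6629 bp inside the genes from their starts.
AT3G11960: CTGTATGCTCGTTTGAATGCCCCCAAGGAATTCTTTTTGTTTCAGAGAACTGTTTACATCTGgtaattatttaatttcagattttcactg
AT3G11964: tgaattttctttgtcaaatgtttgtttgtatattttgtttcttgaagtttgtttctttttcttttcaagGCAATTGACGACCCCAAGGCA
The tandem pair AT5G24710 and AT5G24740 on chromosome 5, both on the - strand, was joined by 100 PETs, and its stretches lie at chr5:8463333-8463422 and chr5:8479626-8479715, 4796 and 10197 bp from the starts.
AT5G24710: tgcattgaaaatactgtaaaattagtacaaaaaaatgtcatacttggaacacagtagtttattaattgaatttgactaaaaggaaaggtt
AT5G24740: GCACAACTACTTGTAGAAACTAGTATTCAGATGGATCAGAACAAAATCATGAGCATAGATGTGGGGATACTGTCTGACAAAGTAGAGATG
The divergent pair AT4G17140 and AT4G17150 on chromosome 4 was joined by 74 PETs, and its stretches lie at chr4:9624907-9624996 (- strand) and chr4:9640627-9640716 (+ strand), 11922 and 2708 bp from the starts.
AT4G17140: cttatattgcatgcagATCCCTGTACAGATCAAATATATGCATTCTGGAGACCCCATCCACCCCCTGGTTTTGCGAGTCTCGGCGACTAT
AT4G17150: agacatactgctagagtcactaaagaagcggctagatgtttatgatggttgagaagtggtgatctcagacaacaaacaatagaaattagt
All 6 stretches fell inside annotated genes, in exons, introns or across a splice junction. None lay at a promoter. The divergent pair also shows what such a loop passed over, since 1089 bp of DNA between the annotated starts belonged to neither anchor. The middle 300 bases of it are printed below on the + strand, chr4:9637269-9637568, with capitals marking the only match, on either strand, to TGGGCC, AAACCCTA or TATAAA, which was TATAAA at position 217.
Between AT4G17140 and AT4G17150: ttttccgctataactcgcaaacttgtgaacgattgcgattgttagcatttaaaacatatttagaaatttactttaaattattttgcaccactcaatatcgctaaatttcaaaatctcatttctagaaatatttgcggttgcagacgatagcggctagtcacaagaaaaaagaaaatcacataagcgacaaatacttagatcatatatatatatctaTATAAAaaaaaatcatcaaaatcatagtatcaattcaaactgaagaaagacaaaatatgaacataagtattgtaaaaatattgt

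Spans ran from 2202 to 19988 bp with a median of 7.89 kb (95% interval 7.73 to 8.07), and the stretch left between the inner anchor edges had a median of 3876 bp (lowest 309, highest 17286). The PET count had a median of 9, with 6 as the lowest value that the list keeps, and 190 as the highest. In all the set held 57889 PETs, 38.4% of those in the list. It used 5638 anchors, 86.9% of the 6485 in the list, with a median width of 2801 bp. Of these anchors 47.9% also took part in a loop of 20 kb and over or between chromosomes, and 55.6% had exactly 1 loop under 20 kb, while the most connected anchor had 8. PET counts followed anchor width, with medians of 7, 8, 9 and 14 PETs over 4 equal classes of loops, from the narrowest to the widest by summed anchor width. The part of anchor width in the PET counts was not tested. The loops just inside the limit joined AT3G51570 to AT3G51620 (19980 bp, 10 PETs) and AT1G73980 to ENO1, a plastid enolase gene (19988 bp, 6 PETs). Those just outside joined LBA1, an RNA helicase gene of nonsense-mediated decay, to the protease gene LON2 (20024 bp, 8 PETs), and AT5G63930 to AT5G63960 (20037 bp, 26 PETs).

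**Figure D1:**
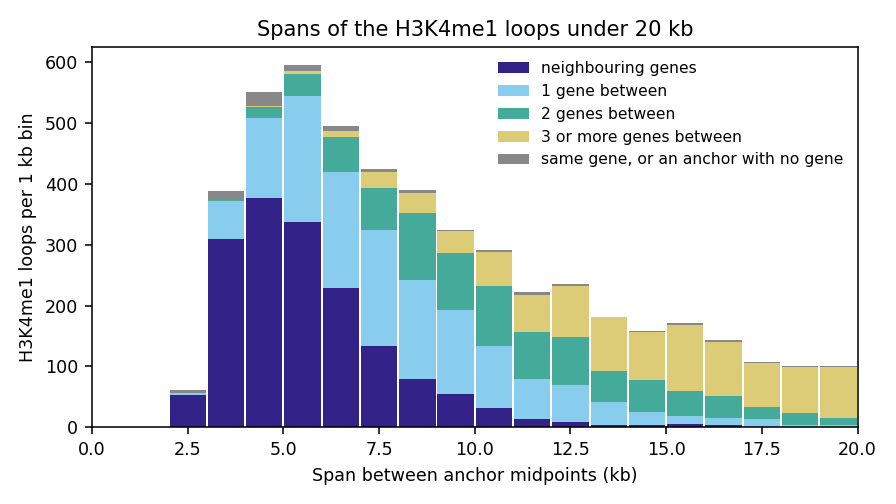
Number of H3K4me1 loops (y axis) in each 1 kb bin of span between anchor midpoints (x axis, kb), coloured by the number of protein-coding genes between the joined genes. Loops between neighbouring genes had a median span of 5.20 kb and those with 3 or more genes between a median of 14.7 kb.

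To see which genes were joined, each anchor was given the protein-coding gene with which it shared most bases. Neighbouring genes made up the largest class, with 1645 loops or 33.3% (32.0 to 34.6), and a median span of 5.20 kb. Loops with 1 protein-coding gene between made up 28.7%, those with 2 between 17.7% and those with 3 or more between 18.5%, up to 10 genes. In 12 loops (0.243%) both anchors were assigned to the same gene, and 80 (1.62%) had an anchor with no protein-coding gene. The rule leaves out loops within 1 anchor, of which the list holds 1094 (8.19% of its loops). The count of 12 is therefore no measure of contacts within genes. Of the 63 anchors without such a gene, 50 overlapped an annotated pseudogene. Most loops reached the next anchor of the list and no farther: 65.6% had no other such anchor between their own, and 25.99% had 1. H3K4me1 peaks with no listed loop are not counted here. The share of neighbours depended on how genes were ranked and assigned, from 28.2% with non-coding genes and pseudogenes ranked too, to 43.5% among loops whose anchors each overlapped 1 protein-coding gene.

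The 12 loops with both anchors assigned to the same gene lay at genes of 3643 bp (AT1G49940) to 13617 bp (AT5G61140). The strongest, with 33 PETs, joined stretches of SECA2, which encodes a subunit of a chloroplast protein translocase and spans 11566 bp. AT5G61140 (13617 bp, 22 PETs) and AT3G33530 (8423 bp, 15 PETs) followed. The gap between the anchors in SECA2 was 745 bp and in AT5G61140 678 bp. The left anchor of SECA2 began outside the gene and also overlapped NADK2. In AT1G49940 the anchors ran past both ends of the gene. A weaker loop of 9 PETs lay within IBM1, which encodes a demethylase of H3K9 methylation that keeps that mark out of gene bodies, and here the anchors were 1372 bp apart.

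The 5550 genes at these loops, 20.2% of the 27444 protein-coding genes of the nuclear chromosomes, were long. Their median length was 3564 bp (3517 to 3604), against 2078 bp over all protein-coding genes and 1776 bp for genes at no anchor of the list. A gene is called at an anchor here where the anchor overlaps it more than any other gene, which favours the longer of 2 genes under an anchor. Over all 6792 genes that an anchor of these loops overlapped the median was 3240 bp (3199 to 3280), and over the 4452 genes that were the only one at such an anchor 3625 bp (3572 to 3685). Genes at an anchor of the list with no loop under 20 kb were just as long, with a median of 3666 bp (3559 to 3752). Genes at the farther loops were longer still, with medians of 5021 bp at 20 kb to 1 Mb, 4813 bp at 1 Mb and over, and 5318 bp between chromosomes, and the anchors there were also wider, 4505, 4205 and 4833 bp. The share of genes at a loop under 20 kb was 0.891% (39 of 4377) below 1 kb, 4.91% at 1 to 2 kb, 19.2% at 2 to 3 kb and 38.4% at 3 to 4 kb. It went on to 57.4% at 4 to 5 kb, 75.5% at 5 to 8 kb and 93.4% (268 of 287) at 8 kb and over. The intervals of neighbouring length classes did not overlap. The share of genes at any anchor of the list rose alike, from 1.03% below 1 kb to 97.2% at 8 kb and over. Among genes at an anchor, the share at a loop under 20 kb had no steady trend with length. From the shortest to the longest class it was 86.7%, 94.8%, 87.6%, 83.6%, 83.6%, 88.8% and 96.1%. The gradient thus followed that of having an anchor, and is not particular to these loops. Long genes also had more loop ends each, a mean of 1.33 below 1 kb and 3.00 at 8 kb and over among genes with any. The part of anchor width and PET counts in this gradient was not tested.

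**Figure D2:**
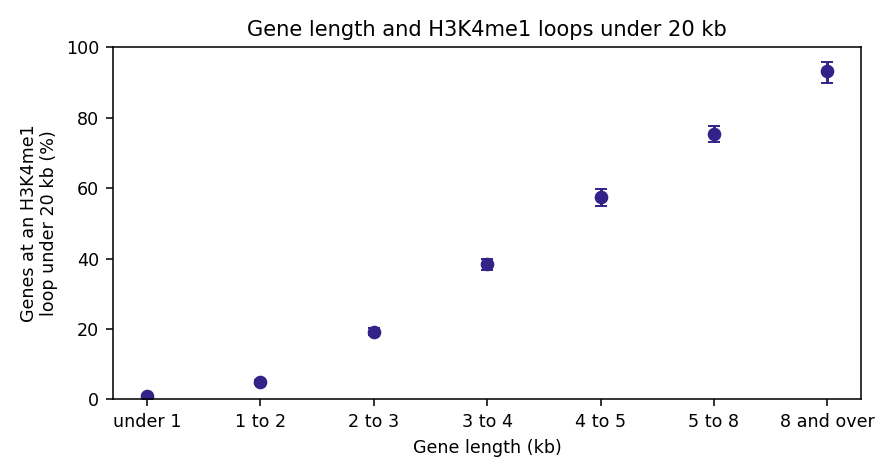
Share of protein-coding genes at an H3K4me1 loop under 20 kb (y axis, %) in classes of gene length (x axis, kb), with points for the share and bars for exact 95% intervals. The share went from 0.891% below 1 kb to 93.4% at 8 kb and over. The share of genes at any anchor of the list, not drawn, went from 1.03% to 97.2%.

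The share of neighbouring genes that were joined rose with the length of the shorter gene. Over the 27439 pairs of neighbouring protein-coding genes in the genome, 1632 (5.95%) were joined. By the length of the shorter gene of the pair, the share was 0.922% below 2 kb, 9.68% at 2 to 3 kb, 33.5% at 3 to 4 kb, 59.2% at 4 to 5 kb and 76.1% (108 of 142) at 5 kb and over. A pair can be joined only where both genes have an anchor. All joined pairs were among the 2370 pairs with both genes at an anchor of the list, of which they made up 68.9%. Having an anchor itself rose with gene length, and its part in these shares was not tested. A loop with a short gene was that of FY, an RNA 3′ end processing gene of the autonomous flowering pathway, which was joined to AT5G13470, a gene of 1465 bp, by 6 PETs, the lowest count kept.

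Anchors lay within genes and were set back from their starts. Over 5575 anchors with a gene, the midpoint was 2111 bp from the start (median, quartiles 1582 and 2862), or 55.5% of the gene's length, and the anchor covered 73.1% of the gene. Of the anchor bases, 57.3% were coding, 34.7% intronic and 4.96% untranslated or other non-coding exon, and 2.99% lay outside protein-coding genes. In the whole of the same genes 51.6% of bases were coding, 33.3% intronic and 15.1% untranslated or other non-coding exon, and 45.9% of the nuclear chromosomes lay outside protein-coding genes. Untranslated exon thus made up a smaller part of the anchors than of the genes they belonged to. In neighbouring joined genes the inner edge of the anchor stopped 698 bp (686 to 709) inside a gene start that faced the partner and 350 bp (340 to 357) inside a facing gene end. The quartiles were 544 and 851 bp at 1643 starts and 237 and 460 bp at 1621 ends, so they did not overlap.

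**Figure D3:**
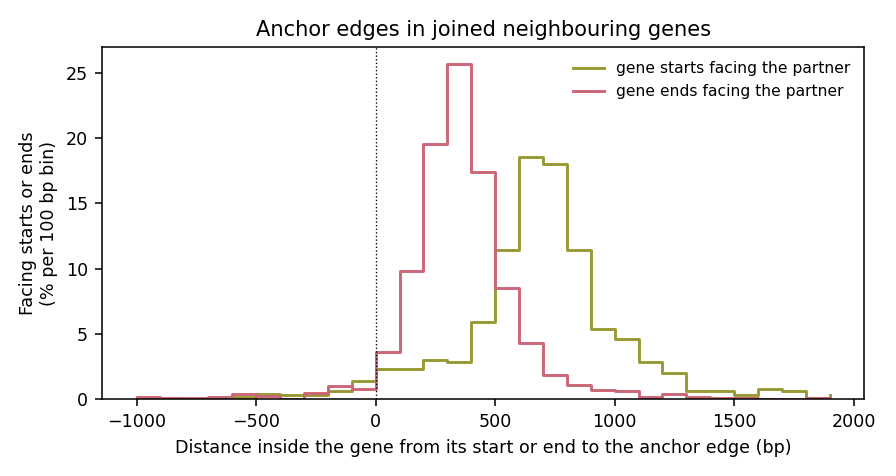
Distance from the gene start (olive) or gene end (red) that faced the partner gene to the inner edge of the anchor (x axis, bp, positive inside the gene), as percent of 1643 starts and 1621 ends per 100 bp bin (y axis), in joined neighbouring genes. The median was 698 bp at starts and 350 bp at ends.

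What lay between the anchors of a joined pair differed with orientation. The gap had a median of 762 bp in convergent pairs, 1457 bp in tandem pairs and 2142 bp in divergent pairs, and the span 4.11, 5.17 and 6.35 kb. In the gaps of convergent pairs 45.2% of bases were untranslated or other non-coding exon and 30.2% lay outside protein-coding genes, and in divergent gaps 18.7% and 48.0%. The midpoint of an H3K4me3 anchor lay in the gap of 76.4% of joined divergent pairs (285 of 373), 49.6% of tandem pairs and 1.38% of convergent pairs (5 of 362). The H3K4me3 shares were alike in pairs that were not joined: among consecutive anchors on neighbouring genes with no loop, the shares were 79.2% for divergent, 51.3% for tandem and 0 of 104 for convergent pairs (exact upper bound 3.48%). RNAPII anchors had the opposite order, with midpoints in 20.7% (16.7 to 25.3) of joined convergent gaps, 11.5% (9.47 to 13.8) of tandem and 4.56% (2.68 to 7.20) of divergent gaps. In pairs that were not joined the RNAPII shares were 12.5% (6.83 to 20.4), 10.5% and 5.19%, each with an interval that overlapped that of the joined pairs. H3K27me3 anchor midpoints lay in no more than 1.67% of the gaps of any joined orientation, and in 5.19% (2.62 to 9.09) of divergent gaps that were not joined, against 1.34% (0.437 to 3.10) of those that were.

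By orientation, 897 of the 1632 joined pairs were tandem (55.0%, 52.5 to 57.4), 362 convergent (22.2%, 20.2 to 24.3) and 373 divergent (22.9%, 20.8 to 24.97). Over all neighbouring pairs of the genome 51.9% were tandem, 24.05% convergent and 24.05% divergent, so the set was close to the genome in orientation, with tandem pairs 3 percentage points higher. This split rests on the gene given to each anchor. With the gene of the nearest start in place of the largest overlap, 38.3% of the joined pairs were convergent and 15.5% divergent, and with only anchors that overlap 1 protein-coding gene the shares were 26.3% and 18.5%.

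Among pairs in which both genes had an anchor of the list, the share that was joined differed with orientation. An anchor is in the list only where it has a listed loop, and 51.2% of the anchors used here had only loops under 20 kb. H3K4me1 peaks with no listed loop are therefore not counted, and the shares joined describe the list and not all H3K4me1 peaks. Of neighbouring pairs with both genes at an anchor of the list, 77.5% (73.5 to 81.2) of convergent, 68.1% (65.5 to 70.6) of tandem and 63.7% (59.6 to 67.6) of divergent pairs were joined. The order was sharpest at short range. Among consecutive anchors under 4 kb apart, 63.8% of 268 convergent, 39.9% of 454 tandem and 11.2% of 89 divergent pairs were joined, and at 4 to 6 kb 97.4%, 78.0% and 62.0%. At 6 to 8 kb the shares were 91.7%, 92.0% and 82.0%, and their intervals overlapped. Within a span bin the orientations differed in anchor width: at 4 to 6 kb the summed width had a median of 7520 bp in convergent, 6502 bp in tandem and 5947 bp in divergent pairs. The comparison was therefore repeated with width held. Below 4 kb of summed width few pairs were joined and the order was not seen, with 14.7% of 68 convergent, 14.8% of 230 tandem and 8.14% of 86 divergent pairs and overlapping intervals. At 4 to 5 kb the shares were 62.0%, 49.8% and 34.9%. At a summed width of 5 to 6 kb, 93.7% of convergent, 73.4% of tandem and 59.2% of divergent pairs were joined, and at 6 to 8 kb 98.3%, 86.5% and 76.1%. With both width (4 to 6 kb) and gap (1.5 to 2.5 kb) held, 14 of 16 convergent, 67 of 114 tandem (58.8%) and 32 of 71 divergent (45.1%) pairs were joined, where the interval of convergent pairs, 61.7 to 98.4%, lay above that of divergent pairs, 33.2 to 57.3%, and overlapped that of tandem pairs, 49.2 to 67.9%. At the same width and a gap of 0.5 to 1.5 kb the shares were 73.1% of 119, 59.8% of 251 and 41.2% of 34, and convergent and divergent intervals were again apart. At a width of 6 to 8 kb they were 98.8%, 90.1% and 85.2% at the shorter gap and 100%, 81.5% and 74.5% at the longer. The order was the same, but the convergent and divergent intervals overlapped at both gaps. Gap was held only within a class: at 0.5 to 1.5 kb its median was 733 bp in convergent, 1114 bp in tandem and 1286 bp in divergent pairs of 4 to 6 kb width. In pairs of 6 to 8 kb width these medians were 760, 1094 and 1305 bp. The part of this difference in the shares was not tested. At 8 kb and over of summed width nearly all were joined in every orientation (100% of 83, 98.95% of 286 and 98.2% of 171). Chromatin was sheared before ligation to fragments of a size like the shortest spans, and the part of this in the short-range shares was not tested. At a minimum of 10 PETs the shares joined over all spans fell to 43.75% for convergent, 31.5% for tandem and 29.7% for divergent pairs.

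**Figure D4:**
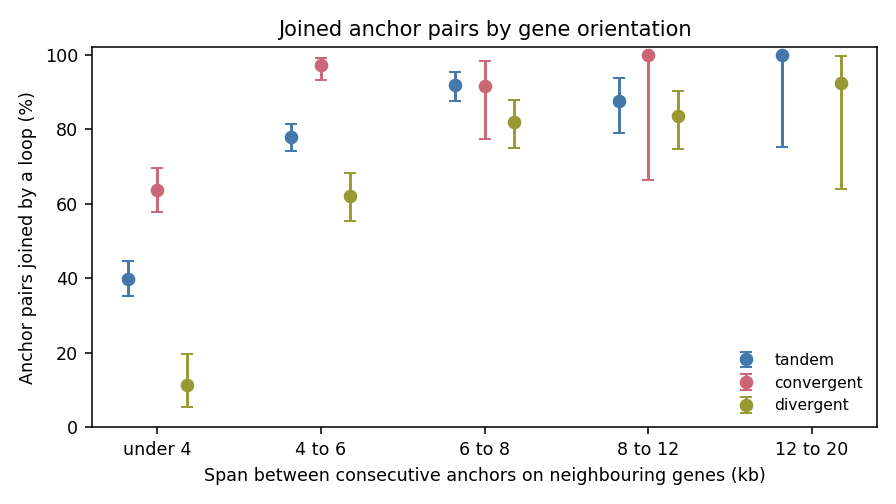
Share of consecutive H3K4me1 anchor pairs on neighbouring genes that a loop joined (y axis, %), by span (x axis, kb) and orientation (colours). Bars are exact 95% intervals, and only anchors with a listed loop are included. Under 6 kb convergent pairs were joined most often and divergent pairs least, and from 6 kb on the intervals overlapped; no convergent pair fell at 12 to 20 kb.

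Convergent pairs with the most PETs joined long genes across narrow gaps. After AT3G11960 and AT3G11964 (gap 655 bp) came SYN4, a cohesin subunit gene of 6504 bp, with AT5G16280 (79 PETs, gap 924 bp), and AT2G26780 of 13949 bp with AT2G26790 (66 PETs, gap 797 bp). The median PET count was 11 (10 to 12) in convergent pairs and 9 in tandem and divergent pairs. In 42.0% of joined convergent pairs (152 of 362, 36.9 to 47.3) the annotated ends of the genes overlapped, against 38.2% of all convergent neighbours. Among consecutive anchors on convergent neighbours, 74.9% of 203 pairs with overlapping ends and 79.7% of 261 with separate ends were joined. The intervals of these shares overlapped. The median spans were 3.32 kb and 4.25 kb, and span was not held, so the part of overlapping ends was not tested.

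Tandem pairs were led, after AT5G24710 and AT5G24740, by GSL03, a callose synthase family gene of 11909 bp, with RAD50, a gene of double-strand break repair (94 PETs over 10422 bp), and by AT1G73950 with TAF2, a gene of the general transcription factor TFIID (71 PETs over 7568 bp). Divergent pairs were led, after AT4G17140 and AT4G17150, by CHR24, a chromatin remodeller gene, with AT5G63960 (69 PETs over 9350 bp), and by ATX1, the trithorax-type H3K4 methyltransferase gene, with SAD2, an importin gene (66 PETs over 11288 bp). The gaps of these last pairs, 2058 and 3236 bp, held both starts. No divergent pair reached the PET count of the first tandem or the first convergent pair.

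The loops with most PETs that passed over a single gene all joined convergent genes. ABCC2, a vacuolar ABC transporter gene, was joined by 174 PETs to AIR9, which encodes a microtubule-associated protein, over 13401 bp and across AT2G34670 (3218 bp). LDL3, the H3K4me1 demethylase gene, was joined by 135 PETs to SPK1, a guanine nucleotide exchange factor gene of cell shape, across AT4G16330 (2245 bp). AAO3, the aldehyde oxidase gene of abscisic acid synthesis, was joined by 96 PETs to TTN7, a cohesin gene, across AT2G27160 (985 bp). In each of these 3 the left anchor also overlapped the gene between. With 2 genes between, EMB3142 was joined to EMF2, a Polycomb group gene that represses flowering, by 74 PETs over 14433 bp. EBS1, a gene of glycoprotein quality control, was joined to AT1G71240 by 68 PETs, and PHYLLO, of phylloquinone synthesis, to WIT2, of the nuclear envelope, by 66 PETs.

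The 4674 genes that at least 1 loop passed over had a median length of 1981 bp (1937 to 2019), close to the 2097 bp (2080 to 2118) of the genes that none passed over. Of the genes passed over, 3128 were assigned no H3K4me1 anchor, and their median of 1603 bp (1564 to 1642) lay below the 1809 bp (1791 to 1824) of the other genes with none. Of the loops with 1 gene between, 67.1% (951 of 1418) passed over a gene that was assigned no anchor of the list. In 39.8% (565) no anchor overlapped that gene at all, and in 27.2% (386) it lay at least partly under an anchor assigned to another gene. The 3128 genes were at an H3K4me3 anchor in 29.3%, against 29.9% of the other genes with no H3K4me1 anchor, and at an H3K27me3 anchor in 6.84% (5.98 to 7.78), against 12.9% (12.4 to 13.4). By definition the genes passed over lie between genes with H3K4me1 anchors under 20 kb apart, while the others lie anywhere in the genome. The span limit also leaves less room for long genes between. The part of this choice in the differences of length and H3K27me3 was not tested. The orientation of the outer genes differed from that of neighbours. With 1 gene between, 32.0% (29.6 to 34.5) of the joined pairs were convergent and 16.8% (14.9 to 18.9) divergent, against 23.8% each over all such pairs of the genome. With 2 genes between, the shares were 34.7% and 16.4%, against 24.5% each. The loops lie under 20 kb by the rule, and the pairs of the genome were not limited in this way. Span, width and gap were not held here, and the gene assignment was not varied for these classes. Where both outer genes had an anchor of the list, 72.7% of convergent, 61.1% of tandem and 45.8% of divergent pairs with 1 gene between were joined. This was the order seen for neighbours, and here too only anchors with a listed loop are counted.

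Loops under 20 kb shared anchors and so formed 1475 separate runs. Of these 603 (40.9%) were a single loop with 2 anchors, 596 had 3 to 5 anchors, 244 had 6 to 10 and 32 had over 10. The median run was 16.7 kb long, and all runs together covered 32.1 Mb, 26.98% of the nuclear chromosomes. The largest number of anchors was 22, reached by 2 runs. The run on chromosome 3 (6943725 to 7078220, 134 kb) had 27 loops with 337 PETs on 21 of its 37 protein-coding genes. From left to right it took in AT3G19950, the myosin gene ATM1, the phosphatase gene FYPP3, the mitochondrial import gene TOM40, AT3G20010, the arginine methyltransferase gene PRMT6, the hexokinase-like gene ATHXK4 and the chaperonin gene TCP-1. It went on through a cluster of cytochrome P450 genes, with anchors assigned to CYP705A15, CYP705A18 and CYP705A21. CYP705A19, CYP705A22 and CYP705A23 lay wholly under these anchors, and CYP705A20 with 87.8% of its length, but none of these 4 genes, of 1753 to 2109 bp, was the gene of largest overlap. The right part held AT3G20150, AT3G20155, AT3G20160, AT3G20170, the receptor kinase gene PRK4, AT3G20200, the Pumilio-type gene PUM5, AT3G20270, AT3G20280 and EHD1, an endocytosis gene. Its strongest loop had 49 PETs and lay at the P450 cluster, where reads of similar genes can be assigned to the wrong copy or lost.

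**Figure D5:**
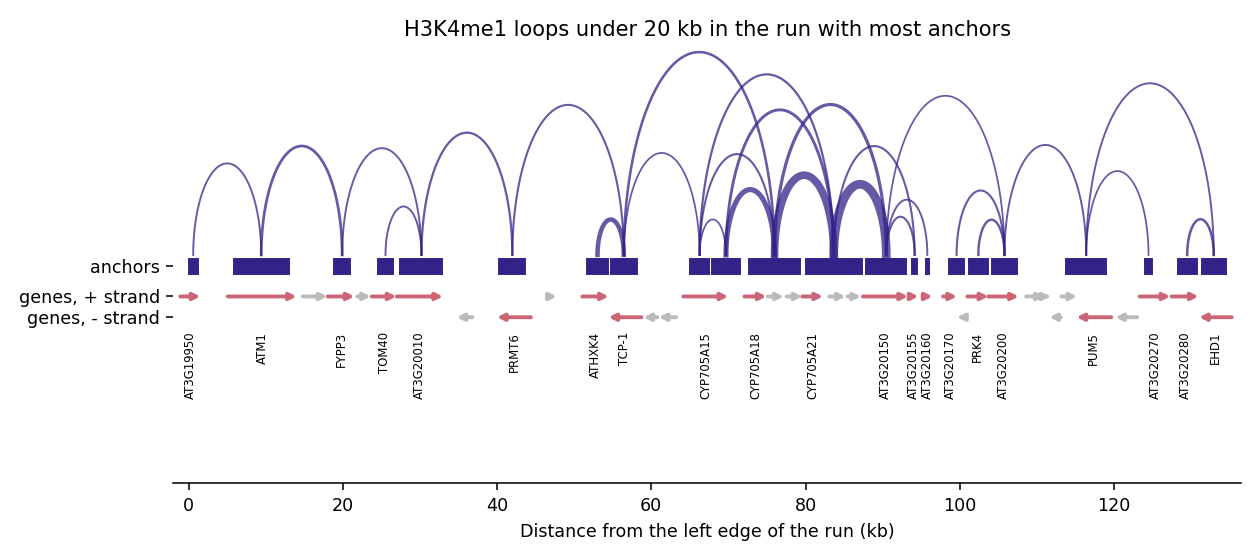
Map of the run with most anchors on chromosome 3, with distance from its left edge on the x axis (kb). Arcs are loops, thicker with more PETs (up to 49), boxes are anchors, and arrows are protein-coding genes by strand, red where assigned to an anchor of the run (21 genes) and grey where not.

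Loops per gene were counted by their ends. The genes with most ends of loops under 20 kb were AT5G08440 (6542 bp, 10 ends, 121 PETs) and PAA1, a chloroplast copper transporter gene (7322 bp, 8 ends, 100 PETs). REF4, a Mediator subunit gene (6419 bp, 7 ends, 117 PETs), came next. AT4G32700 (12513 bp, 117 PETs) and RLP15, a receptor-like protein gene (3579 bp, 89 PETs), also had 7 loop ends each. So had EDA10, PWD and CYP705A15 with fewer PETs (84, 77 and 75). In AT5G08440 and CYP705A15, 1 loop joined a pair of anchors assigned to the gene, with 12 and 6 PETs. That loop and its PETs are counted at both ends, so these 2 genes had fewer distinct loops and PETs than the counts given. RLP15 was the shortest of these 8 genes and close to the median of all genes at these loops.

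The genes that write, remove and read H3K4 methylation were themselves at these loops in most cases, beside a background of 20.2% of all protein-coding genes. All 7 H3K4 methyltransferase genes listed were, with lengths of 6206 to 11182 bp. The symbol ATX1 belongs to 2 genes in the annotation, and the methyltransferase gene AT2G31650 was taken. After ATX1 and SAD2, the strongest were ATXR7 (annotated as SDG25), joined to the convergent SPP by 61 PETs, ATX2 with 35 PETs, and ATXR3 (SDG2), joined to the convergent FH3 by 33 PETs. ATX5 (SDG29) had 29 PETs, ATX3 (SDG14) 13 and ATX4 (SDG16) 8. Of 7 demethylase genes matched by symbol, 4 were at a loop: LDL3, FLD, JMJ14 and JMJ15 (annotated as MEE27). LDL1 and LDL2, of 2736 and 2895 bp, and JMJ18, of 5528 bp, were at no H3K4me1 anchor. JMJ16 and JMJ17 had no match. FLD was joined to the divergent SEC8 by 19 PETs and JMJ14 to the convergent GSNAP by 19 PETs. For the methyltransferase genes the closer measures are the 75.5% of all genes of 5 to 8 kb and the 93.4% of those of 8 kb and over. The matched demethylase genes were 2736 to 8293 bp long, where 19.2% (2 to 3 kb) to 93.4% (8 kb and over) of all genes were at such a loop. Against these shares the counts are not a result about H3K4 methylation.

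Of 12 matched genes of H3K4me1 reading and DNA repair, 11 were at a loop and MSH7 had an anchor without one, beside the background of 20.2% of all genes, 57.4% of those of 4 to 5 kb and 75.5% of those of 5 to 8 kb. Most of the 12 were over 4 kb long, and the count is not a result about DNA repair. The damage kinase gene ATM, the longest protein-coding gene at 27265 bp, had an anchor of 30333 bp, the widest of the set, and was joined to AT3G48200 by 80 PETs. MSH6, whose product reads H3K4me1 and repairs mismatches, was joined to the tandem PRL, a DNA replication gene, by 18 PETs. The end-joining genes KU80, KU70 and LIG4 (annotated as ATLIG4) had strongest loops of 36, 6 and 8 PETs. The kinase gene ATR had 27, MSH3 10 and BRCA1 7. PDS5C and TEB had no match.

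In the autonomous flowering pathway, whose members repress the floral repressor FLC, 7 of 8 genes were at a loop and FVE had an anchor without one. The genes were 3472 to 8385 bp long, where 38.4% (3 to 4 kb) to 93.4% (8 kb and over) of all genes were at such a loop, and the count is not a result about flowering. FCA and LDL3 were joined to each other by 51 PETs over 12165 bp, across the 456 bp gene SPH1. LDL3 was thus joined on 1 side to FCA, divergently, and on the other to SPK1, convergently with 135 PETs. LD was joined to the divergent CUL1, a ubiquitin ligase gene, by 24 PETs, FPA to the convergent ETFQO by 14 and REF6, a demethylase of H3K27me3, to the tandem AT3G48425 by 13. FLK was joined by 19 PETs to an anchor with no protein-coding gene.

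Promoters of the joined genes, taken as 250 bases before to 50 bases after the annotated start in RefSeq TAIR10.1, were searched on both strands for 3 short motifs, none of which is part of another. TGGGCC, the core of the site II element found at genes of growing cells, was present in 19.2% (18.2 to 20.3) of the 5550 promoters of genes at these loops and in 15.5% of all promoters. It was no less frequent at anchors of the list with no loop under 20 kb, with 23.3% (20.4 to 26.3) of 838 promoters, so it is not particular to the loops. In joined neighbours it was present in 15.8% (14.1 to 17.7) of promoters of tandem pairs, near the share of all promoters. The shares were 21.0% (18.1 to 24.1) for convergent and 18.9% (16.2 to 21.9) for divergent pairs. Among genes of 3 kb and over, the shares were 19.6% at these loops and 12.9% (11.7 to 14.2) at no anchor of the list. TATAAA, the core of a TATA box, was present in 47.7% against 52.1% of all promoters, and among genes of 3 kb and over in 48.1% against 53.6% at no anchor. AAACCCTA, the telo box, was present in 6.29% against 6.22%, and among genes of 3 kb and over in 5.38% (4.67 to 6.17) at these loops and 3.82% (3.13 to 4.61) at no anchor of the list. A match is a description of the letters in this window and not a site.

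Few of the gene pairs were joined in the other active lists. With all lists at a minimum of 6 PETs, 731 of 4827 gene pairs (15.1%) were also joined by an H3K4me3 loop under 20 kb, which was 8.74% of the 8364 H3K4me3 pairs. Among neighbours the share was 36.2% (31.2 to 41.4) of convergent, 23.3% (20.6 to 26.2) of tandem and 7.51% (5.05 to 10.7) of divergent pairs, and these intervals did not overlap. At a minimum of 10 PETs the share over all pairs was 5.16%. RNAPII loops under 20 kb joined 46 of the pairs (0.953%, and 3.48% of the 1323 RNAPII pairs), and 17 pairs were joined in all 3 lists. The orientation of joined neighbours differed between lists: 37.0% of H3K4me3 neighbours and 11.8% of RNAPII neighbours were convergent, and 13.5% and 31.4% were divergent, against 22.2% and 22.9% for H3K4me1. The genes at these loops were also shorter in the other lists, with medians of 2544 bp for H3K4me3 and 2495 bp (2440 to 2554) for RNAPII. The antibodies differ in where their anchors lie in a gene, and the part of that in which pairs were called was not tested.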

How the data were processed

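Loops were called by the authors with ChIA-PET Tool V3 on reads mapped to TAIR10, between anchors given as ChIP-seq peaks. The deposited H3K4me1 list pools the replicates of the antibody and names 4 libraries, and no source used here says how they relate to the 2 samples. Its values are whole counts of PETs per loop, as deposited and not normalized, with a false discovery rate (an adjusted p-value) per loop by the authors, used here only as a filter. This list holds loops at a false discovery rate of 0.0499 and below, with a minimum in this list of 6 PETs within and 8 between chromosomes.

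Genes came from RefSeq TAIR10.1. All deposited positions lay within its chromosome lengths, and 92.9% of H3K4me3 anchor midpoints lay within 1 kb of a gene start. Each anchor was assigned the protein-coding gene of largest overlap, with genes ranked by start on their chromosome. Consecutive anchors of the list were compared by whether a loop joined them, without peaks that had no listed loop. No test was made, since no list gives replicates apart. Named were the 3 loops with most PETs in each class (same gene, tandem, convergent, divergent, 1 gene between, 2 or more between), the 5 genes with most loops, the genes of the run with most anchors, the 2 loops nearest the span limit on each side, and list members at a loop. The members and gene lists were chosen with earlier results of these data known. Alternatives were a PET minimum of 10, a false discovery rate under 0.001, a span under 10 kb, assignment by anchor midpoint or nearest start, all annotated genes, anchors with 1 gene, and shared loops by overlap. Comparisons at held width and gap, of gap content, of base composition, of pairs with genes between and of genes under any anchor were added after seeing the data. Protein similarity of neighbours was not analysed here, and the loops of some list members are counted but not reported here. Python 3.11.15, pandas 2.3.3, NumPy 2.4.6, SciPy 1.17.1, NetworkX 3.6.1 and matplotlib 3.10.9 were used, and the assignment and intervals were tested on simulated data.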

Additional observations from a re-analysis of the deposited data

How the results depend on the processing

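Over 9 results and 62 alternative values, 33 stayed within the interval of the reported value (for the number of loops, within 1.5 times). At a minimum of 10 PETs 2130 loops were left, neighbours made up 37.7% of them, convergent pairs 25.75% of joined neighbours, the median gene length was 4148 bp, the shares joined were 31.5% of tandem, 43.75% of convergent and 29.7% of divergent pairs, and 5.16% of pairs were shared with H3K4me3. At a deposited false discovery rate under 0.001 neighbours made up 35.7%. At spans under 10 kb 3230 loops were left, with 48.7% neighbours and 16.6% shared with H3K4me3. With the gene at the anchor midpoint neighbours made up 31.9%. With the gene of the nearest start neighbours made up 30.0%, convergent pairs 38.3%, divergent pairs 15.5%, the median length was 3066 bp and 11.7% were shared. With all annotated genes ranked neighbours made up 28.2%. With only anchors that overlap 1 protein-coding gene, neighbours made up 43.5%, convergent pairs 26.3%, divergent pairs 18.5%, the median length was 3791.5 bp, 64.6% of tandem and 58.0% of divergent pairs were joined and 13.8% were shared. Over every gene that an anchor overlaps the median length was 3240 bp, and over genes that are the only one at an anchor 3625 bp, in comparisons added after seeing the data. Counting overlapping anchors in place of the same genes, 12.04% were shared. In every alternative run the share joined was highest in convergent and lowest in divergent pairs. The cause of these changes was not tested, beyond the smaller number of loops that stricter limits leave.

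No paired analysis was possible because each list pools its replicates and carries no replicate columns, so leaving out a replicate was not run. Depth limits what the absence of a loop means, since pairs under 6 PETs are not listed. Consecutive anchors that were joined had a median summed width of 7049 bp and those that were not joined 4590 bp, at median spans of 6.10 and 6.20 kb.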

Other observations

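The loops were unevenly spread over the chromosomes, with 45.6, 29.8, 42.5, 40.7 and 44.9 loops per Mb on chromosomes 1 to 5. As a share of each chromosome's protein-coding genes at a loop under 20 kb the difference was smaller, with 16.8% (15.7 to 17.99) on chromosome 2 and 19.9% to 21.4% on the others.

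The other run with 22 anchors lay on chromosome 5 (20789661 to 20948668, 159 kb) and held 24 loops with 313 PETs, among them the loop from EMB3142 to EMF2. A run of 21 anchors on chromosome 1 (5471888 to 5587182) took in WAKL6, WAKL1, WAKL2 and WAKL4, a tandem family of wall-associated kinase-like genes, and no loop in it had more than 17 PETs. These genes were named after their values were seen.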
